A study of Mus musculus with 12 samples.

Results

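The genes described here code for receptors and secreted proteins with which phagocytes find and swallow dying cells, a process called efferocytosis, and for proteins that move the lipid taken in that way. They were picked by name, as the 10 rows of the deposited count table for Axl, Mertk, Gas6, Stab1, Timd4, Cd36, Lrp1, Abca1, Apoe and Trem2, out of 23420 genes in all. RNA had been sequenced in bulk from monocytic myeloid-derived suppressor cells (M-MDSCs), immature monocyte-like cells of the bone marrow that had been sorted as positive for CD11b, negative for Ly6G and high for Ly6C. The cells came from untreated male C57BL/6JNIA animals in 2 groups, young (6 months, n = 6) and aged (24 months, n = 6), each animal giving a single library, and no allele or agent beyond the strain was named for either age. The tissue label was tibia. The question was whether the level of these genes in the sorted cells differed between the ages.

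Efferocytosis begins with phosphatidylserine, a lipid that dying cells expose on their surface. Axl and Mertk are receptor tyrosine kinases of the TAM family that bind it through the secreted bridging protein Gas6, whereas Stab1 (stabilin-1) and Timd4 (TIM-4) bind it directly. Cd36 is a scavenger receptor that takes up oxidized lipids and fatty acids, Lrp1 is an endocytic receptor for lipoproteins that carry apolipoprotein E (Apoe), Abca1 exports cholesterol from the cell, and Trem2 is a lipid-sensing receptor that signals through the adaptor Tyrobp. In bone marrow several of these genes are known from the macrophages that clear dying blood cells and expelled nuclei, and Mertk and Timd4 are used as markers of tissue-resident macrophages.

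The aged libraries held 8737941 to 16300374 counted fragments and the young ones 4613239 to 9079237, so that 3 counts, taken as the floor of detection, were worth 0.188 to 0.350 CPM in aged and 0.306 to 0.643 CPM in young mice. CPM, the count scaled to library size, refers here to the TMM-normalized library total, and the spread between mice includes counting error. Summed neutrophil markers exceeded summed monocyte markers in every library although the sort had been set to remove Ly6G-bearing cells. The summed level of 8 neutrophil markers was 82236 to 103393 CPM in aged and 65442 to 89232 CPM in young mice, against 3426 to 4462 CPM and 3997 to 4183 CPM for 7 classical monocyte markers, of which Ly6c2, which codes for the Ly6C antigen, gave 605 to 799 CPM and 367 to 595 CPM. All young libraries bore lower sample numbers in the alignment files than all aged libraries, and whether preparation or sequencing changed between them cannot be told apart from age.

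Markers of several cell types moved with age, resident macrophages among them. Of 14 listed, 13 were in the table, 11 were tested and 10 rose in aged mice by edgeR's quasi-likelihood test, where 22.4% of all genes tested were called higher. All 11 had a positive log2 fold change, and Vsig4, a complement receptor of resident macrophages, had 0 counts in all young mice and 4 to 200 counts in aged mice. The summed level of the 13 markers was 657 to 1719 CPM in aged and 423 to 596 CPM in young mice, with Slc40a1, the iron exporter ferroportin, at means of 540 CPM in aged and 435 CPM in young mice but at 609 of the 1719 CPM in aged mouse 1. All 13 were highest in aged mouse 1, and in 11 of them the second highest mouse was aged mouse 2. Of the 8 neutrophil markers 5 were called higher and of 6 tested markers of Ly6C-low monocytes 4 were called lower by edgeR, where 22.4% of all genes tested were called higher and 23% lower. The summed levels of erythroid, endothelial and stromal markers, at most 92.4 CPM in any mouse, were higher in aged mice as well (exact permutation tests, two-sided, n = 6 each, p adjusted over 13 lists of 0.0141, 0.0281 and 0.0328). In bulk RNA, more cells of a type and more RNA per cell cannot be told apart, and the part that any of these cells took in the values below was not tested.

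Of the 10 genes, 8 passed the filter on low counts, and 6 of these rose in aged mice, namely Axl, Mertk, Gas6, Cd36, Abca1 and Apoe (edgeR quasi-likelihood test, adjusted p under 0.05). Over all 9742 genes tested, 22.4% were called higher and 23% lower, 45.4% in all. None of the 8 was called lower, none had an unadjusted p under 0.05 in that direction, and DESeq2 and limma-voom also called 0 lower. Stab1 and Lrp1 were not called in either direction. Timd4 and Trem2 failed the filter. Mertk, Gas6 and Cd36 reached the filter's minimum of 1.14 CPM, here on library totals without TMM factors, in 5 aged mice each but in only 3, 1 and 1 young mice, so that they were tested largely because they were high in aged mice, whereas the other 5 reached it in all 12. Without a filter all 10 could be fitted, their median log2 fold change was 1.91 against 0.055 over 15827 genes, and 7 were called higher by edgeR, where 14.6% of all genes were. With at least 10 counts required in every mouse, 5 were tested and Axl, Abca1 and Apoe were called.

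**Figure D1:**
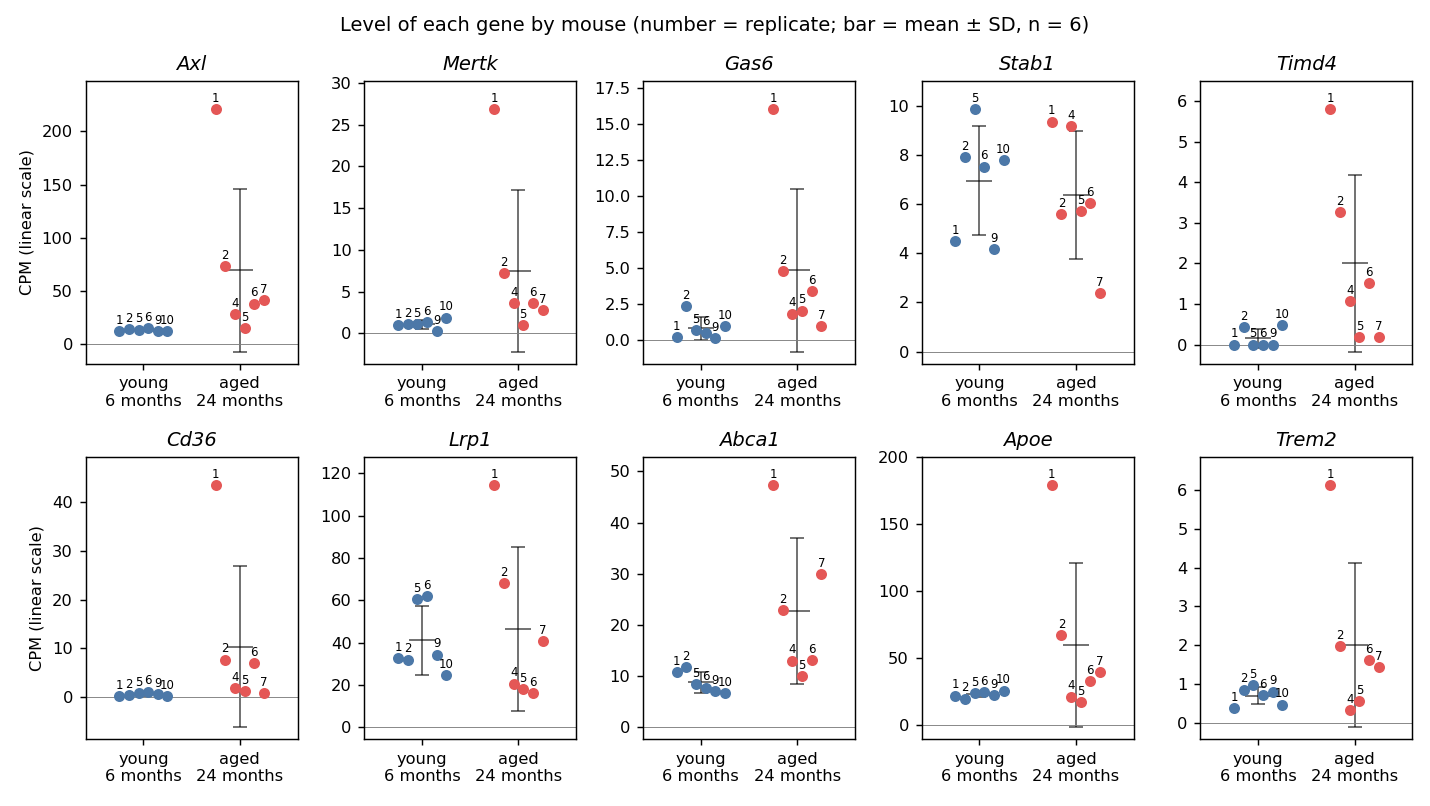
Level of each of the 10 genes in each mouse in CPM on a linear axis that differs between panels, with 6 young and 6 aged mice as points numbered by replicate and the mean ± SD as bars. Aged mouse 1 is the highest of all 12 mice in every panel except Stab1, where young mouse 5 is, and Axl is the panel in which no aged mouse falls within the young range.

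The receptor kinase Axl (mm10 chr7:25756500-25788733, minus strand, 20 exon blocks) did not overlap between the ages. It lay between 11.9 and 14.6 CPM in young mice (median 12.7) and between 14.97 and 221 CPM in aged mice (median 39.6). The young mice were nearly level, whereas the aged mice were spread widely, with aged mouse 5 just above the highest young mouse and aged mouse 1 far above the rest. Means were 69.5 ± 76.7 CPM in aged and 12.9 ± 1.10 CPM in young mice (SD, n = 6 each), and the log2 fold change was 2.41 with an SE of 0.52 (edgeR, adjusted p = 0.00194). Over all genes tested, 9.68% lay higher in aged mice without overlap, and for Axl the ages overlapped with library totals without TMM factors and after thinning to the smallest total. Without aged mouse 1 the log2 fold change of Axl was 1.59, and the gene stayed called in all 23 alternatives, with adjusted p-values of 9.83e-05 to 0.0297 by edgeR, DESeq2 or limma-voom.

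Mertk (chr2:128698997-128802188, plus strand, 19 exon blocks), the other TAM receptor among the 10, rose as well. It lay between 0.231 and 1.89 CPM in young mice (median 1.08) and between 1.02 and 26.9 CPM in aged mice (median 3.62), from 2 to 16 and 11 to 241 counts. Aged mouse 5 lay within the young range, and the other 5 aged mice lay above all young mice. The log2 fold change of Mertk was 2.72 with an SE of 0.72 (edgeR, adjusted p = 0.00668). Without aged mouse 1 it was 1.68, and of 21 alternatives only limma-voom lost the call, at a log2 fold change of 2.01 (limma, adjusted p = 0.0599, where the alternatives reached from 0.00111 to that value).

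Their ligand Gas6 (chr8:13465374-13494535, minus strand, 15 exon blocks) rose with them. It lay between 0.116 and 2.36 CPM in young mice (median 0.580) and between 0.940 and 16.1 CPM in aged mice (median 2.72), from 1 to 11 and 15 to 144 counts. The highest young value came from young mouse 2 and reached above aged mice 4, 5 and 7, so that 3 aged mice lay above all young mice. The log2 fold change of Gas6 was 2.70 with an SE of 0.74 (edgeR, adjusted p = 0.00843), and it was 1.80 without aged mouse 1. It was called in all 21 alternatives that tested it.

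The other receptor and the other ligand of the TAM family were not called. Tyro3 had 0 counts in all 12 mice, which allows up to 3 counts in each. Pros1, which codes for the bridging protein S, was at 1.48 ± 1.24 CPM in aged and 0.929 ± 0.530 CPM in young mice, and its log2 fold change of 0.62 did not pass the test (edgeR, adjusted p = 0.381). The log2 fold change of Pros1 was 0.083 without aged mouse 7 and 0.85 without aged mouse 4. Adam10 and Adam17, proteases that cut Axl, Mertk and Trem2 from the cell surface, had log2 fold changes of 0.06 and -0.09 and were not called, although Adam10 was called higher with a correction for gene length (0.22) and Adam17 lower without TMM factors (-0.18).

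The promoters of the TAM genes are shown because Axl, Mertk and Gas6 moved together, with the same stretch of Abca1 and Apoe for the lipid genes. Each runs 5′ to 3′ on the gene's own strand over 300 bases, 250 before the start listed by RefSeq on GRCm38.p6 to 50 after it. Capitals mark matches on either strand to the GC box GGGCGG, the core of PU.1 sites GAGGAA or the TATA box TATAAA. PU.1 is a transcription factor of myeloid cells.
Axl (chr7:25788684-25788983, minus strand): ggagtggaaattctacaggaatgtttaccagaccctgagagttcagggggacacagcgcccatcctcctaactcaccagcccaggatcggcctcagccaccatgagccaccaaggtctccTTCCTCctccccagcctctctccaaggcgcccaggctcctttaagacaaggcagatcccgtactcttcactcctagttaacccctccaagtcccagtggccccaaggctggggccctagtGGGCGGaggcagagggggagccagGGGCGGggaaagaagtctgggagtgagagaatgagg
Mertk (chr2:128698665-128698964, plus strand): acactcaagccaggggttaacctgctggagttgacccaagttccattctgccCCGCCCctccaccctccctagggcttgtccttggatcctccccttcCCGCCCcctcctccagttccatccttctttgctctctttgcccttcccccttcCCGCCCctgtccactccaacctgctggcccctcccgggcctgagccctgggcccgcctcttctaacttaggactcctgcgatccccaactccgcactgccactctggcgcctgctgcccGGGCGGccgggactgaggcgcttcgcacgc
Gas6 (chr8:13494486-13494785, minus strand): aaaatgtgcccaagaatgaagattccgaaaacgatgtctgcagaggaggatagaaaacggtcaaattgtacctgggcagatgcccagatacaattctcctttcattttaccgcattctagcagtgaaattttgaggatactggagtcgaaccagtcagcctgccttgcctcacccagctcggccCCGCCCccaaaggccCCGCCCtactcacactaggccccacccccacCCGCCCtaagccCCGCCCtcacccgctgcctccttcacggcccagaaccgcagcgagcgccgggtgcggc
Abca1 (chr4:53159846-53160145, minus strand): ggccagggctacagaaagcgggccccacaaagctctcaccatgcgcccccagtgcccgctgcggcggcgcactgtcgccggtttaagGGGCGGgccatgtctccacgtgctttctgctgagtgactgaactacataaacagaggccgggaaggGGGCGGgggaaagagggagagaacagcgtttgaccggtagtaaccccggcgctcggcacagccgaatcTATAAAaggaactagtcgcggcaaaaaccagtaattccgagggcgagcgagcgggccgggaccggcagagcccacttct
Apoe (chr7:19699139-19699438, minus strand): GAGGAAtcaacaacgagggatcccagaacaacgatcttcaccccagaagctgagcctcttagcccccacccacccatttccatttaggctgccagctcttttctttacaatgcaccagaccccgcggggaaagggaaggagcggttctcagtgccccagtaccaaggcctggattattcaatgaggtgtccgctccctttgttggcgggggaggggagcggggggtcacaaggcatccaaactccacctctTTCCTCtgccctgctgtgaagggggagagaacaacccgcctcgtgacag
The listed starts of Axl, Gas6 and Abca1 were those of the deposited gene models, and those of Mertk and Apoe lay 82 and 22 bases from them.

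All 10 genes had a promoter in the RefSeq table. The GC box was found in 6 of them, against 35.7% of all 32851 promoters of the table, and it stood 4 times each in Mertk and Gas6 and 2 times each in Axl, Cd36 and Abca1. The PU.1 core was found in 4 (Axl, Apoe, Stab1 and Trem2) against 28.3%. CCAAT was found in 4 against 37.4%, the nuclear receptor element AGGTCA in 3 (Cd36, Timd4 and Trem2) against 16.3%, and TATAAA in Abca1 alone against 13.6%. These are matches of letters in 1 window per gene, and for Cd36 the window lay 53063 bases from the start of the deposited gene model, which spans several start sites. Genes that rose and genes that did not both held GC boxes, since Lrp1 had 1.

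Stab1 and Timd4, the receptors that bind phosphatidylserine without a bridge, are described next. Stab1 (chr14:31139017-31168641, minus strand, 69 exon blocks) lay between 4.16 and 9.87 CPM in young mice (median 7.67) and between 2.38 and 9.37 CPM in aged mice (median 5.89), and the ages overlapped throughout. Its log2 fold change of -0.16 with an SE of 0.29 did not pass the test (edgeR, adjusted p = 0.684), and its sign turned without aged mouse 7 (0.034). It was the only one of the 10 genes in which aged mouse 1 was not the highest mouse.

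Timd4 (chr11:46810799-46844333, plus strand, 9 exon blocks) had 6 counts in the young mice together, with 4 of 6 at 0, and 111 counts in the aged mice. Its level was at most 0.473 CPM in young mice, and it lay between 0.185 and 5.80 CPM in aged mice (median 1.29). Aged mice 5 and 7 lay within the young range, and the other 4 lay above all young mice. The difference in mean log2 CPM was 2.15 on a scale with a prior count of 2 (exact permutation test, two-sided, p = 0.0130, n = 6 each, where the smallest p possible was 0.00216). Fitted without a filter, Timd4 was called higher (edgeR, adjusted p = 0.00624; DESeq2, adjusted p = 0.00845).

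Trem2 (chr17:48346401-48352276, plus strand, 5 exon blocks) had few counts in every mouse, from 2 to 9 counts in young and 3 to 55 counts in aged mice. It lay between 0.391 and 0.977 CPM in young mice (median 0.761) and between 0.321 and 6.13 CPM in aged mice (median 1.53). Aged mice 4 and 5 were among the young values or below them, and the other 4 aged mice lay above all young mice. The difference in mean log2 CPM did not pass the test (exact permutation test, two-sided, p = 0.139, n = 6 each). The tools parted on Trem2, which DESeq2 called higher at a log2 fold change of 1.48 (adjusted p = 0.0355) and edgeR without a filter did not at 1.43 (adjusted p = 0.0565).

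Cd36 (chr5:17781690-17888959, minus strand, 17 exon blocks) lay between 0.195 and 1.12 CPM in young mice (median 0.503) and between 0.752 and 43.6 CPM in aged mice (median 4.36), from 1 to 11 and 12 to 391 counts. Aged mouse 7 lay within the young range, aged mice 4 and 5 just above it, and aged mouse 1 stood at 24.0 times the median of the other aged mice. Cd36, which passed the filter through 5 aged mice and 1 young mouse, rose with a log2 fold change of 4.001 and an SE of 1.01 (edgeR, adjusted p = 0.00531). Without aged mouse 1 its log2 fold change was 2.51, and of 21 alternatives limma-voom alone lost the call, at 2.61 (limma, adjusted p = 0.0740, where the alternatives reached from 1.02e-04 to that value).

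Abca1 (chr4:53030789-53159895, minus strand, 50 exon blocks), the cholesterol exporter, rose in every setting tried. It lay between 6.75 and 11.8 CPM in young mice (median 8.10) and between 10.1 and 47.4 CPM in aged mice (median 17.95). Aged mouse 5 lay within the young range, and the second highest aged mouse was here mouse 7, not mouse 2. Means were 22.7 ± 14.2 CPM in aged and 8.76 ± 2.06 CPM in young mice (SD, n = 6 each), and the log2 fold change was 1.41 with an SE of 0.34 (edgeR, adjusted p = 0.00368). It was 1.06 without aged mouse 1, and over all 23 alternatives it was 0.97 to 1.95.

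The call of Apoe (chr7:19696244-19699166, minus strand, 4 exon blocks), the lipoprotein ligand, depended on aged mouse 1 and on the processing. It lay between 19.5 and 25.6 CPM in young mice (median 22.8) and between 17.1 and 179 CPM in aged mice (median 36.0). Aged mice 4 and 5 did not exceed the young mice, and the other 4 did. The log2 fold change of Apoe was 1.37 with an SE of 0.46 (edgeR, adjusted p = 0.0252). Without aged mouse 1 it was 0.62 and no longer called (edgeR, adjusted p = 0.0719), and without aged mice 1 and 2, a setting chosen after seeing the data, it was 0.28 (edgeR, adjusted p = 0.270). Apoe was called in 18 of 23 alternatives, in which the adjusted p ranged from 0.00982 to 0.270.

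Lrp1 (chr10:127538158-127621148, minus strand, 89 exon blocks) was not called, and its mice differed more within an age than the ages did. It lay between 24.5 and 61.9 CPM in young mice (median 33.5) and between 16.1 and 115 CPM in aged mice (median 30.7). Aged mice 1 and 2 were the highest of the 12, and aged mice 4, 5 and 6 were the lowest of the 12, so the aged values lay on both sides of the young ones. The log2 fold change was 0.16 with an SE of 0.43 (edgeR, adjusted p = 0.788). It was -0.34 without aged mouse 1, -0.77 without aged mice 1 and 2 and 0.94 with a correction for gene length, and no alternative called it (adjusted p from 0.0648 to 0.976 by edgeR, DESeq2 or limma-voom).

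The mice at the low end of Lrp1 were also at the low end of Ccr2 and F13a1, a pair of genes of classical monocytes singled out after their values had been seen. Ccr2, the chemokine receptor of these cells, lay between 5.03 and 62.0 CPM in aged and between 23.9 and 54.7 CPM in young mice, and aged mice 4, 5 and 6 held the 3 lowest places of 12 for Ccr2, for the monocyte gene F13a1 and for Lrp1. Aged mouse 2, young mice 5 and 6 and aged mouse 7 held the 4 highest places for Ccr2 and F13a1 and places 2 to 5 for Lrp1. Aged mouse 1 was first for Lrp1 but sixth for Ccr2 and seventh for F13a1. The rest of the monocyte list was mixed. For Fcgr1, an Fc receptor, aged mice 4 and 5 were the lowest of 12 at 0.855 and 1.76 CPM and aged mice 1, 2 and 7 the highest at 9.92, 5.83 and 4.39 CPM, whereas aged mice 5 and 6 were the highest of 12 for Ly6c2, at 799 and 789 CPM, and aged mouse 7 was the lowest for Csf1r, the receptor for colony-stimulating factor, at 93.1 CPM. The part of monocytes in the Lrp1 values was not tested.

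**Figure D2:**
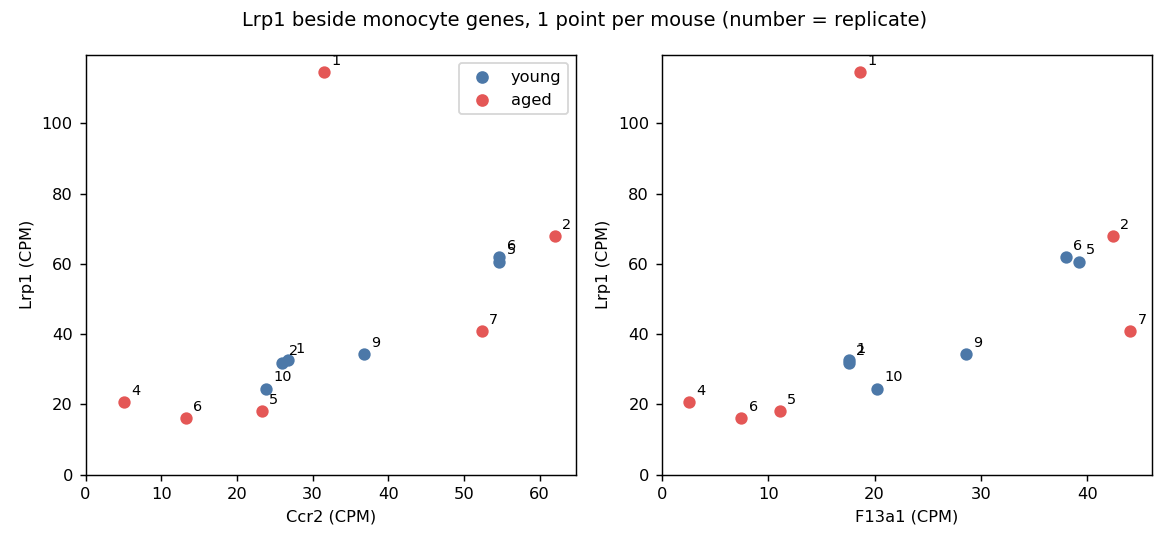
Lrp1 in CPM against the monocyte genes Ccr2 (left) and F13a1 (right) in CPM, with 1 point per mouse numbered by replicate, young in blue and aged in red. Aged mice 4, 5 and 6 lie at the lower left, and aged mouse 1 lies apart at 115 CPM of Lrp1.

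Aged mouse 1 carried much of the size of these differences. It was the highest of 12 mice for 9 of the 10 genes, whereas 12.03% of all genes tested were highest in it, and aged mouse 2 was second among the aged mice for 8. Aged mouse 1 exceeded the median of the other aged mice 5.54-fold in the median of the 10 genes, from 1.63-fold in Stab1 to 24.0-fold in Cd36. For the 13 macrophage markers the same ratio had a median of 7.88 and reached from 1.12 to 60.3. With aged mice 1 and 2 both left out, Axl, Mertk, Gas6, Cd36 and Abca1 were still called higher at log2 fold changes of 1.25, 1.30, 1.48, 2.07 and 0.97 (edgeR, largest adjusted p = 0.0467, for Gas6).

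**Figure D3:**
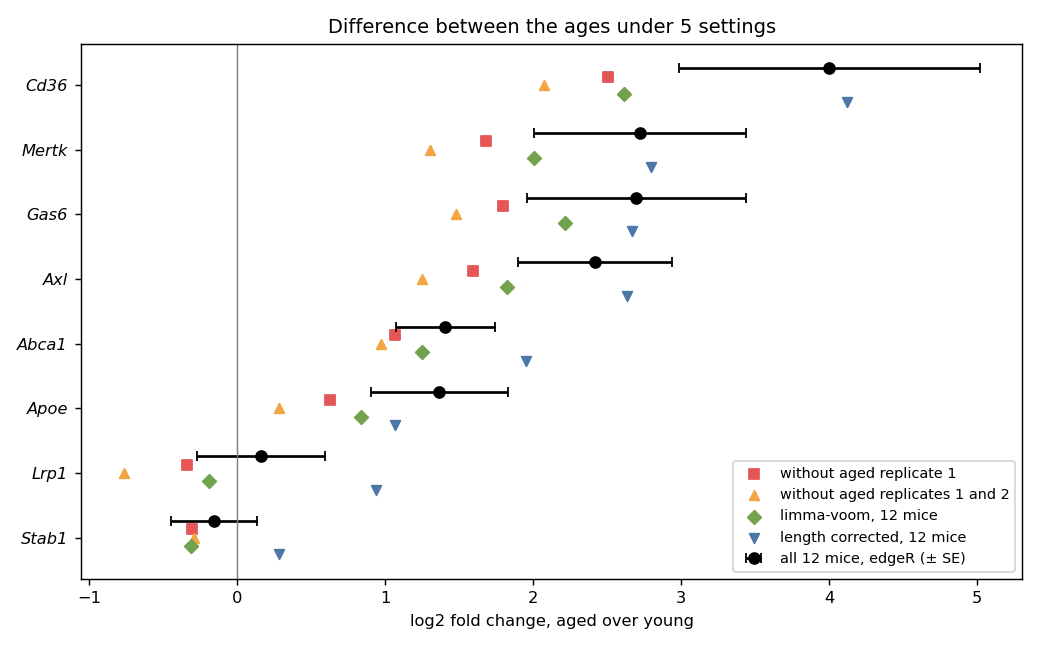
Log2 fold change of the 8 tested genes, aged over young, under 5 settings, with the fit of all 12 mice as black points ± SE. Leaving out aged mouse 1 (squares) and aged mice 1 and 2 (triangles) moves all 8 genes to the left, and Lrp1 crosses 0.

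The other aged mice did not lie together either. Among the 10 genes, aged mice 1 and 2 lay above all young mice in 9 each, aged mouse 6 in 8, aged mice 4 and 7 in 5 each and aged mouse 5 in 2, Axl and Cd36. Of all 9742 genes tested, 30.7% lay above all young mice in aged mouse 1, 29.4% in aged mouse 2, 29.3% in aged mouse 4, 30.2% in aged mouse 5, 29.5% in aged mouse 6 and 24.3% in aged mouse 7, and of the 8 tested genes among the 10, 7, 7, 4, 2, 6 and 4 did so in the same order of mice. The SD of log2 CPM among aged mice had a median of 1.28 over the 8 tested genes, against 0.512 among young mice, where over all genes tested the medians were 0.186 and 0.210. Those 8 include Mertk, Gas6 and Cd36, which were tested largely because they were high in aged mice. The other 5 had SDs of 0.684 to 1.32 among aged and 0.119 to 0.542 among young mice. Genes were not matched by level for this comparison. Per length, Apoe was the most abundant of the 10 at both ages, with a mean level of 47.5 CPM per kilobase of exon in aged and 18.2 in young mice. Axl followed in aged mice at 13.7 CPM per kilobase and stood at 2.55 in young mice, next to Lrp1 at 2.75 (3.11 in aged mice), whose range of 1.65 to 4.16 among young mice held the range of 2.34 to 2.86 for Axl. The other 7 genes lay between 0.799 (Stab1) and 2.63 (Cd36) CPM per kilobase in the aged means and between 0.0691 (Timd4) and 0.872 (Stab1) in the young means, and their ranges among aged mice overlapped. The aged mean of Cd36 rested on aged mouse 1 at 11.1 CPM per kilobase, with the other aged mice at 0.191 to 1.96.

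**Figure D4:**
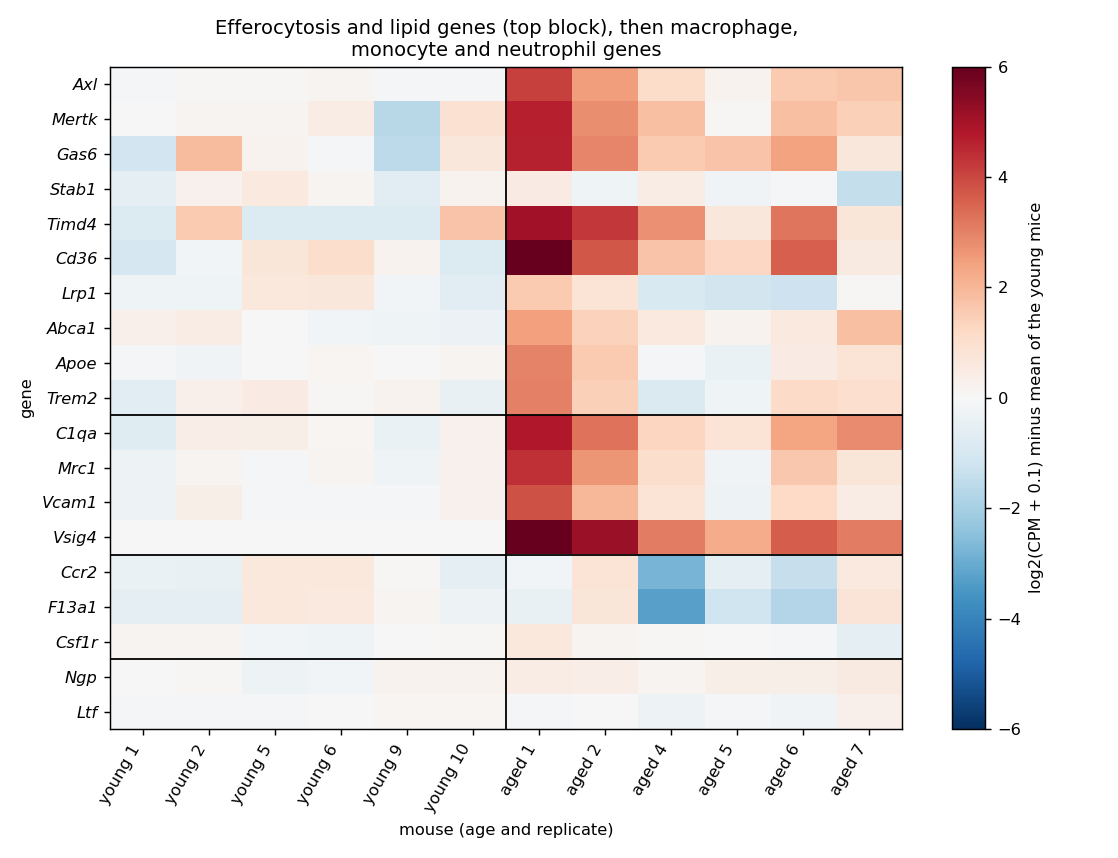
Difference of log2(CPM + 0.1) from the mean of the young mice for the 10 genes (top block) and for macrophage, monocyte and neutrophil genes (blocks below), with 1 column per mouse. Aged mouse 1 and then aged mouse 2 are the darkest red columns for most of the efferocytosis genes and for the macrophage genes C1qa, Mrc1, Vcam1 and Vsig4, whereas the neutrophil genes Ngp and Ltf stay pale.

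For Cd36, Mertk and Gas6, which varied most among aged mice of the 8 tested genes, the genes with the most similar pattern over mice were looked up, and Siglec1, Maf and Mrc1 of the macrophage list were among them. The measure was the root mean square difference of log2 CPM over 12 mice after each age had been centred, in which the age difference plays no part. The genes nearest to Cd36 were Siglec1, Pou2af1 and Gpd1 at 0.573 to 0.586, against 1.38 for Cd36's own deviation. Those nearest to Mertk were Maf, H2-Eb1 and Mrc1 at 0.419 to 0.432, against 1.08 for Mertk's own. Those nearest to Gas6 were Cmklr1, Igf1 and Il18 at 0.549 to 0.575, against 1.10 for Gas6's own.

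The wider pathway was described with 9 lists of 94 further genes, of which 92 were in the table and 77 were tested. Of these, 29 were called higher and 19 lower by edgeR, where 22.4% and 23% of all genes tested were, with a median log2 fold change of 0.07 against 0.0062 over all genes tested, and 29 were not called. Among other phosphatidylserine receptors and bridging molecules, 5 of 11 tested genes rose and 2 fell. C1qc, a chain of the complement protein C1q that coats dying cells, rose with a log2 fold change of 3.32 (edgeR, adjusted p = 7.99e-04), together with C1qa and C1qb, all 3 also on the macrophage list. The log2 fold change of C1qc was 2.54 without aged mouse 1 and 2.23 without aged mice 1 and 2. Thbs1, the bridging protein thrombospondin-1, fell by 1.65 on the log2 scale (edgeR, adjusted p = 1.36e-04).

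Of 14 tested engulfment genes, 5 rose and 7 fell, where 45.4% of all genes tested were called in either direction. Cdc42, a GTPase that drives actin assembly, rose from 1001 ± 161 to 1475 ± 159 CPM, whereas the exchange factors Trio and Dock5 fell, Dock5 from 553 ± 37.4 to 357 ± 44.5 CPM (edgeR, adjusted p = 6.68e-05). With a correction for gene length, Dock5 had a log2 fold change of -0.08 and was not called. Among the 9 partners of Trem2, 3 rose and 5 fell. Hcst, the adaptor DAP10, rose with a log2 fold change of 0.62 but stood at -0.044 with the length correction. The kinase Syk fell by 0.52 on the log2 scale and the myeloid receptor Treml4 by 1.13. Treml4 was not called with the replicate block (edgeR, adjusted p = 0.103, the largest over its 23 alternatives). Of 4 tested inhibitors of engulfment 3 rose, led by Pecam1 with a log2 fold change of 1.07, while Sirpa, the receptor for the don't-eat-me signal Cd47, was at -0.03 and not called.

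**Figure D5:**
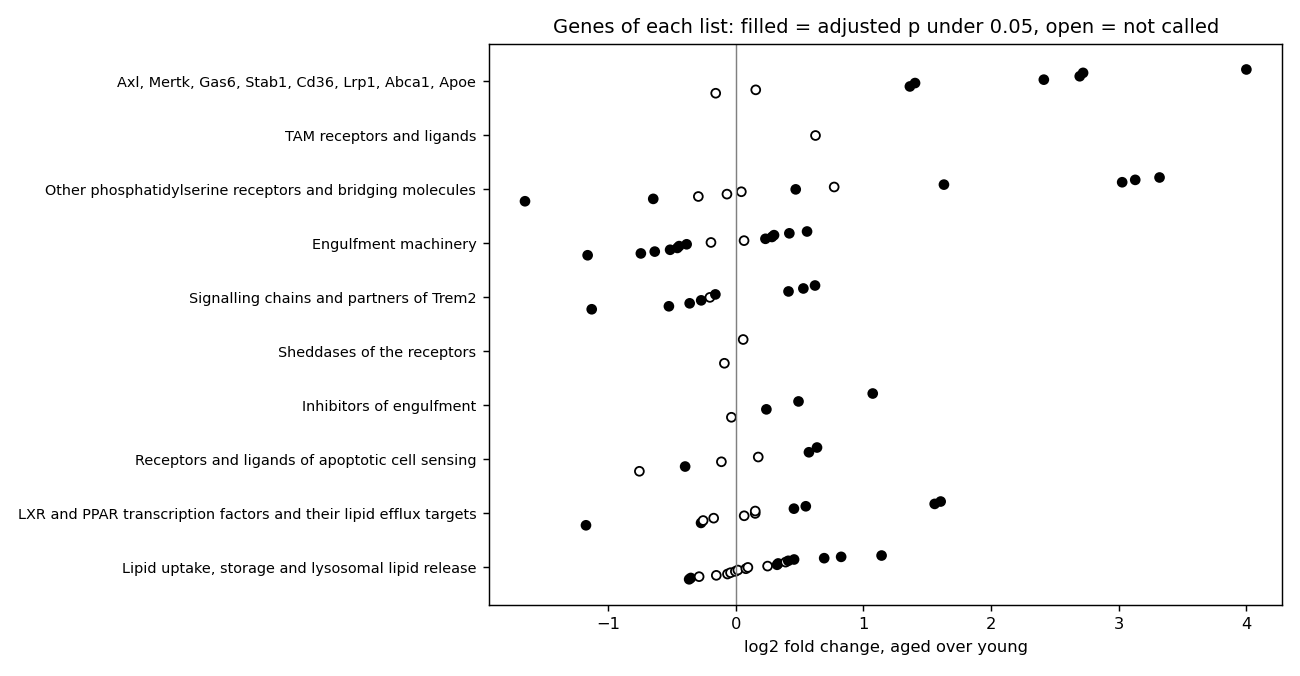
Log2 fold change, aged over young, of the 8 tested genes (top) and of the tested genes of the 9 other lists, with 1 point per gene, filled where the adjusted p was under 0.05. The lists spread to both sides of 0, and outside the top row the points beyond 3 are the 3 C1q genes.

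Lipid genes outside the 10 were called in both directions. Of 11 tested LXR and PPAR factors, partners and targets, 4 rose and 2 fell, where 45.4% of all genes tested were called either way. Lpl, the lipase that frees fatty acids from lipoproteins, rose with a log2 fold change of 1.61 (edgeR, adjusted p = 0.0286) but was not called without aged mouse 1 (1.05), aged mouse 7 (1.43), young mouse 1 (1.52), young mouse 10 (1.55) or aged mice 1 and 2 together (0.86), nor with limma-voom (0.96) or the replicate block (1.04), where adjusted p-values over all alternatives reached 0.258. Apoc2, the apolipoprotein that activates Lpl, rose from 1.86 ± 0.661 to 5.53 ± 0.898 CPM, with a log2 fold change of 1.56 (edgeR, adjusted p = 1.14e-04), and was singled out after its value had been seen. Ncor1, a corepressor of nuclear receptors, fell by 1.17 on the log2 scale (edgeR, adjusted p = 7.83e-06). It was called in all 23 alternatives, at log2 fold changes of -1.40 to -0.585. The factors Nr1h3 (LXR alpha) and Pparg were too low to be tested and were singled out after their values had been seen. Nr1h3 had 9 to 70 counts in aged and 1 to 5 in young mice, and Pparg had 7 to 64 and 1 to 5.

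Of 19 tested genes of lipid uptake, storage and lysosomal release, 7 rose and 2 fell, where 45.4% of all genes tested were called in either direction. Fabp5, a carrier of fatty acids, rose from 7.47 ± 2.02 to 16.1 ± 3.97 CPM and Cd68, a lysosomal scavenger protein of macrophages and monocytes, from 24.4 ± 3.58 to 43.3 ± 9.09 CPM (edgeR, adjusted p = 3.93e-04 and 3.42e-04). Lrp8, a lipoprotein receptor related to Lrp1, fell by 0.36 on the log2 scale, and with the length correction it stood at 0.037 and was not called. Of 6 tested receptors and ligands that sense dying cells, 2 rose, led by P2ry2, the receptor for released nucleotides, with a log2 fold change of 0.64 (not called after thinning, at 0.55, or with the replicate block, at 0.70). Cx3cr1, the fractalkine receptor, stood at a log2 fold change of -0.75 and was not called (edgeR, adjusted p = 0.238), except without aged mouse 7, where it was -1.37.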

How the data were processed

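RNA of 12 mice, 1 library each, was analysed from the count table that the authors deposited. Its whole-number counts are fragments per gene over the exons of UCSC genes on mm10, made by the authors with featureCounts 2.0.0 per the file headers, reverse-stranded, keeping pairs whose ends both aligned and to the same chromosome, mapping quality 60 or more, without normalization. That quality filter lowers genes with near-identical copies. The aligner was not given in the sources used here. The deposited table also gives the length over exons. All columns were used.

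The ages were compared with edgeR 4.0.16 in R 4.3.3 on the counts as deposited, with TMM factors, filterByExpr, the quasi-likelihood test and Benjamini-Hochberg adjustment over 9742 genes at a threshold of 0.05. The standard error came from the log2 fold change and its F statistic. DESeq2 1.42.0, limma-voom (limma 3.58.1), other scalings and filters, length and GC corrections, thinning to 4613239 counts, leaving out each mouse and a replicate block were alternatives. Calls were tested on simulated data. The genes and lists were chosen with earlier results of these data known. All 10 genes were named with their values, and of each list the tested genes that rose most, fell most or had the lowest p, except 1 result that is not reported here. The labels give each mouse as a separate sample, and no 2 mice of an age were alike within counting noise, with a chi-square per gene of at least 1.72. The lowest total, 4613239 counts, limits genes of few counts.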

Additional observations from a re-analysis of the deposited data

Results flagged for a closer look

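Within an age, 7 values stood apart by Dixon's test on CPM, the gap to the nearest mouse over the range of 6. Chance does so in about 1 in 20 groups of normally distributed values, and whether CPM had that form was not tested. The genes share the same mice, so the flags are not independent of each other. Among aged mice the test picked out 6 of the 10 genes, each time aged mouse 1, with 221 CPM for Axl, 26.9 CPM for Mertk, 16.1 CPM for Gas6, 43.6 CPM for Cd36, 179 CPM for Apoe and 6.13 CPM for Trem2. Among young mice it picked out 1 of the 10, young mouse 2 with 2.36 CPM for Gas6, from 11 counts.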

How the results depend on the processing

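The number of the 10 genes called higher was 6, and it was 3 with limma-voom, 3 with at least 10 counts in every mouse and 3 after thinning to the smallest total, where each of the latter tested 5 genes. DESeq2 gave 8, no filter 7, the length correction 5, and leaving out each mouse in turn 5 to 6. Of all genes tested, 2185 of 9742 were called higher, 2108 of 9742 with limma-voom and 1798 of 9742 with the length correction. DESeq2 called 2467 of 12533 higher and edgeR without a filter 2316 of 15827. With at least 10 counts in every mouse 2143 of 8668 were called higher, and after thinning 1980 of 8920. Leaving out each mouse gave 1864 to 2366 genes called higher. Of the 10 genes, 1 did not overlap between the ages, but 0 with library totals without TMM factors and 0 after thinning. The number was 1 to 3 when each mouse was left out. It was 3 (Axl, Mertk and Abca1) without aged mouse 5 and 2 (Axl and Cd36) without aged mouse 7. With a mouse left out, any gene is less likely to overlap. No share of all genes is given for those settings, so whether these counts exceed it was not tested.

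Signs turned in genes that were not called. Stab1 had log2 fold changes of 0.28 with the length correction and -0.30 to 0.034 when each mouse was left out. Lrp1 had -0.19 with limma-voom, -0.34 to 0.34 when each mouse was left out, -0.22 with the replicate block and -0.77 without aged mice 1 and 2, a setting chosen after seeing the data. Adam10 stood at -0.025 without TMM factors, Adam17 at 0.062 with the length correction, and Sirpa at 0.0013 with upper quartile factors, 0.10 with the length correction and 0.0083 without aged mice 1 and 2. Of called genes, Hcst stood at -0.044 and Lrp8 at 0.037 with the length correction. Causes were not tested.

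The ages share 4 replicate numbers. Deviations of mice with the same number correlated at -0.246 to -0.0655, and 0 of 4 aged mice correlated best with their own number. No pairing by number was seen, though 4 correlations are too few to exclude one. With the number as a replicate block over those 8 mice, 5 of the 10 genes were called higher, without Apoe, where 1586 of all 9821 genes tested were. GC content was known for 94.4% of the genes tested. Depth limits Timd4, Trem2 and the young values of Gas6 and Cd36, which rest on at most 11 counts per mouse.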

Other observations

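Of 13 marker lists, 8 had their highest sum in aged mouse 1, whereas the neutrophil, monocyte, osteoclast and dendritic cell lists had theirs in other mice. Among plasma cell, B cell, T or NK cell, erythroid, megakaryocyte, stromal, endothelial and dendritic cell lists, the highest sum was 92.4 CPM for the stromal list in aged mouse 1, against at most 15.6 CPM in any young mouse. Most of it was Cxcl12, a chemokine of marrow stromal cells, at 73.8 CPM. Pf4, a platelet chemokine, had 0 to 1 counts in young mice and 128 in aged mouse 1, and Sdc1, which marks plasma cells, had 0 to 8 counts in young mice and 61 in that mouse. Pf4, Sdc1 and Cxcl12 were singled out after their values had been seen.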
